A study of Mus musculus with 9 samples.

Results

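The S100 genes encode small calcium-binding proteins of the EF-hand type, and 8 of them were followed here: S100a1, S100a4, S100a6, S100a8, S100a9, S100a10, S100a11 and S100a13. They were taken as the rows of the gene tables whose Ensembl identifiers carry these symbols, which gave 8 of 55487 gene IDs, and all 8 were among the 18341 genes with enough counts to test. RNA had been sequenced from monocytes sorted from spleens of untreated C57BL/6 mice, in 3 groups of 3 libraries. The groups were Ly6Clo monocytes of Cebpa +37-/- mice (KO), which lack both copies of the +37 element of Cebpa, the gene of the myeloid transcription factor C/EBP-alpha, then Ly6Clo monocytes of wild-type (WT) mice and Ly6Chi monocytes of WT mice. The labels name no Cre driver for the deletion and give no age, and no KO Ly6Chi library was analysed here. The title of the series places these samples in the question whether C/EBP-alpha is needed for Ly6Chi and for Ly6Clo monocytes.

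Most S100 proteins form dimers, change shape when calcium binds and then attach to a target protein, inside the cell or, once released, at a receptor. S100a8 and S100a9 pair to form calprotectin, a metal-chelating alarmin abundant in neutrophils and in classical (Ly6Chi) monocytes and much less so in nonclassical (Ly6Clo) ones. S100a10 is the exception in the family because it no longer binds calcium, and it is held at the membrane by annexin A2.

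All 8 genes lie on mouse chromosome 3 (GRCm38), where much of the S100 family is clustered. From S100a1 to S100a9 they cover 185 kb. S100a1 (ENSMUSG00000044080, minus strand) spans 90511034 to 90514392 and S100a13 (ENSMUSG00000042312, plus strand) spans 90514435 to 90524581, so that these genes start back to back with 42 bases between them. S100a4 (ENSMUSG00000001020) spans 90603771 to 90606045 and S100a6 (ENSMUSG00000001025) spans 90612882 to 90624181, both on the plus strand. S100a8 (ENSMUSG00000056054, plus strand, 90668978 to 90670035) and S100a9 (ENSMUSG00000056071, minus strand, 90692632 to 90695721) are separated by 22596 bases. S100a11 (ENSMUSG00000027907, 93520488 to 93526287) and S100a10 (ENSMUSG00000041959, 93555080 to 93564643), both on the plus strand, form a second site 2.82 Mb from S100a9 and 28.8 kb apart. Their annotated exons add up to between 511 bases in S100a11 and 1367 bases in S100a6.

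The promoter windows of the calprotectin genes are shown because these are the members with the largest differences between the monocyte groups. Each window runs from 250 bases before to 50 bases after the RefSeq start (GRCm38.p6), written in the direction of the gene. Capitals mark matches to 4 short motifs that were searched on both strands: TTGCNNAA (C/EBP core), GAGGAAGT (PU.1, a macrophage and granulocyte factor), TATAAA (the core promoter box of that name) and, for the stress-responsive factor AP-1, TGANTCA.
S100a8, chr3:90668821-90669120, plus strand: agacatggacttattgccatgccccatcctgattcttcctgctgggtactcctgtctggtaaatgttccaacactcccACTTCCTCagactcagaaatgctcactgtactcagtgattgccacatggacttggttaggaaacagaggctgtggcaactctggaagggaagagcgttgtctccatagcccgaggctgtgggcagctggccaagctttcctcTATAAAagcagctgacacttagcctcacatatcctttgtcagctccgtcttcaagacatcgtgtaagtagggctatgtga
S100a9, chr3:90695672-90695971, minus strand: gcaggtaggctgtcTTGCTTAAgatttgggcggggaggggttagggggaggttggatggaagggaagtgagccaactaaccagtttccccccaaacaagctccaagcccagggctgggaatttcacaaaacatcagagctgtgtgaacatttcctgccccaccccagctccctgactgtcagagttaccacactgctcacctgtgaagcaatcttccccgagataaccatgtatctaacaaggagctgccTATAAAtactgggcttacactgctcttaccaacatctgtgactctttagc

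The S100a8 window held a PU.1 match 172 bases before the start, read on the opposite strand as ACTTCCTC, and a TATA box 30 bases before the start. The S100a9 window held a C/EBP core match, TTGCTTAA, 236 bases before the start, and a TATAAA match at the annotated start itself. Of 32851 promoter windows of the same length, 10.8% held the C/EBP core, 3.20% the PU.1 letters, 13.6% a TATA box and 7.81% the AP-1 letters. Among the other members with a window, S100a4 held a PU.1 and a TATA match and S100a11 held AP-1 matches 136 and 38 bases before its start. S100a1, S100a6 and S100a13 held none of the 4 motifs. Windows of 7 of the 8 genes were read, all but S100a10. These matches describe letters in a window and do not show binding.

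The windows of S100a1 and S100a13 share 204 bases, shown because the pair is divergent. Here capitals mark the 42 bases between the annotated genes.
S100a1 and S100a13, chr3:90514281-90514484, plus strand: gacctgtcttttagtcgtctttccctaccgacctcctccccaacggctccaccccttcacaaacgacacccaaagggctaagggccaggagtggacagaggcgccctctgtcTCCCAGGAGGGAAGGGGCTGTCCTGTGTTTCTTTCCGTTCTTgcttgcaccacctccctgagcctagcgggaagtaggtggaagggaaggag

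Gene totals ran from 48.1 to 173.7 in units of 1000000 counts. Cebpa was at 4.04, 2.89 and 2.74 CPM (counts per 1000000, on TMM-scaled library sizes) in KO Ly6Clo, 18.2, 17.7 and 19.2 CPM in WT Ly6Clo, against 31.5, 51.3 and 51.6 CPM in WT Ly6Chi. Ly6c2, a gene of the antigen behind the sort, was at most 5.33 CPM in the Ly6Clo libraries of both genotypes and at least 862 CPM in WT Ly6Chi. WT Ly6Chi replicate 3 held 30.0 CPM of the female-specific transcript Xist and no count of the Y-linked Ddx3y, unlike the other 8 libraries, which held Ddx3y at 69.4 CPM or more. WT Ly6Chi replicate 1 stood apart from replicates 2 and 3 at other genes, for example at Nr4a1 (322, 2627 and 2785 CPM in replicates 1 to 3). In all 3 groups replicate 1 had the lowest sum of 7 Ly6Clo monocyte markers, Nr4a1 among them. These sums were 6211 CPM in KO Ly6Clo, 8927 CPM in WT Ly6Clo and 1291 CPM in WT Ly6Chi. Sums of B, T, NK and of basophil and mast cell markers were also lowest in replicate 1 of each group. The other cell type marker sums were not. Whether each replicate is a mouse of its own is not stated in the labels, so that a p-value here reflects library-to-library spread, possibly technical. Erythroid markers varied widely, from 1.2 to 7518 CPM in KO Ly6Clo, 402 to 3335 CPM in WT Ly6Clo and 132 to 223 CPM in WT Ly6Chi, with 0 of 5 genes called in any comparison. Library numbers in the files form 2 runs, of 5 and 4 libraries, and each run holds all 3 groups.

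For all 8 S100 genes, every WT Ly6Clo library lay below every WT Ly6Chi library, which held for 14.7% of all genes tested. The KO Ly6Clo libraries did so for 6 of the 8, and for 11.7% of all genes. Among the 8, the largest fitted differences between the WT subsets were those of S100a8 and S100a9, followed by S100a10. Between KO and WT Ly6Clo monocytes no S100 gene passed the test, and S100a8 had the largest fitted difference. In bulk RNA, fewer cells that carry a transcript and less transcript per cell cannot be told apart.

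**Figure D1:**
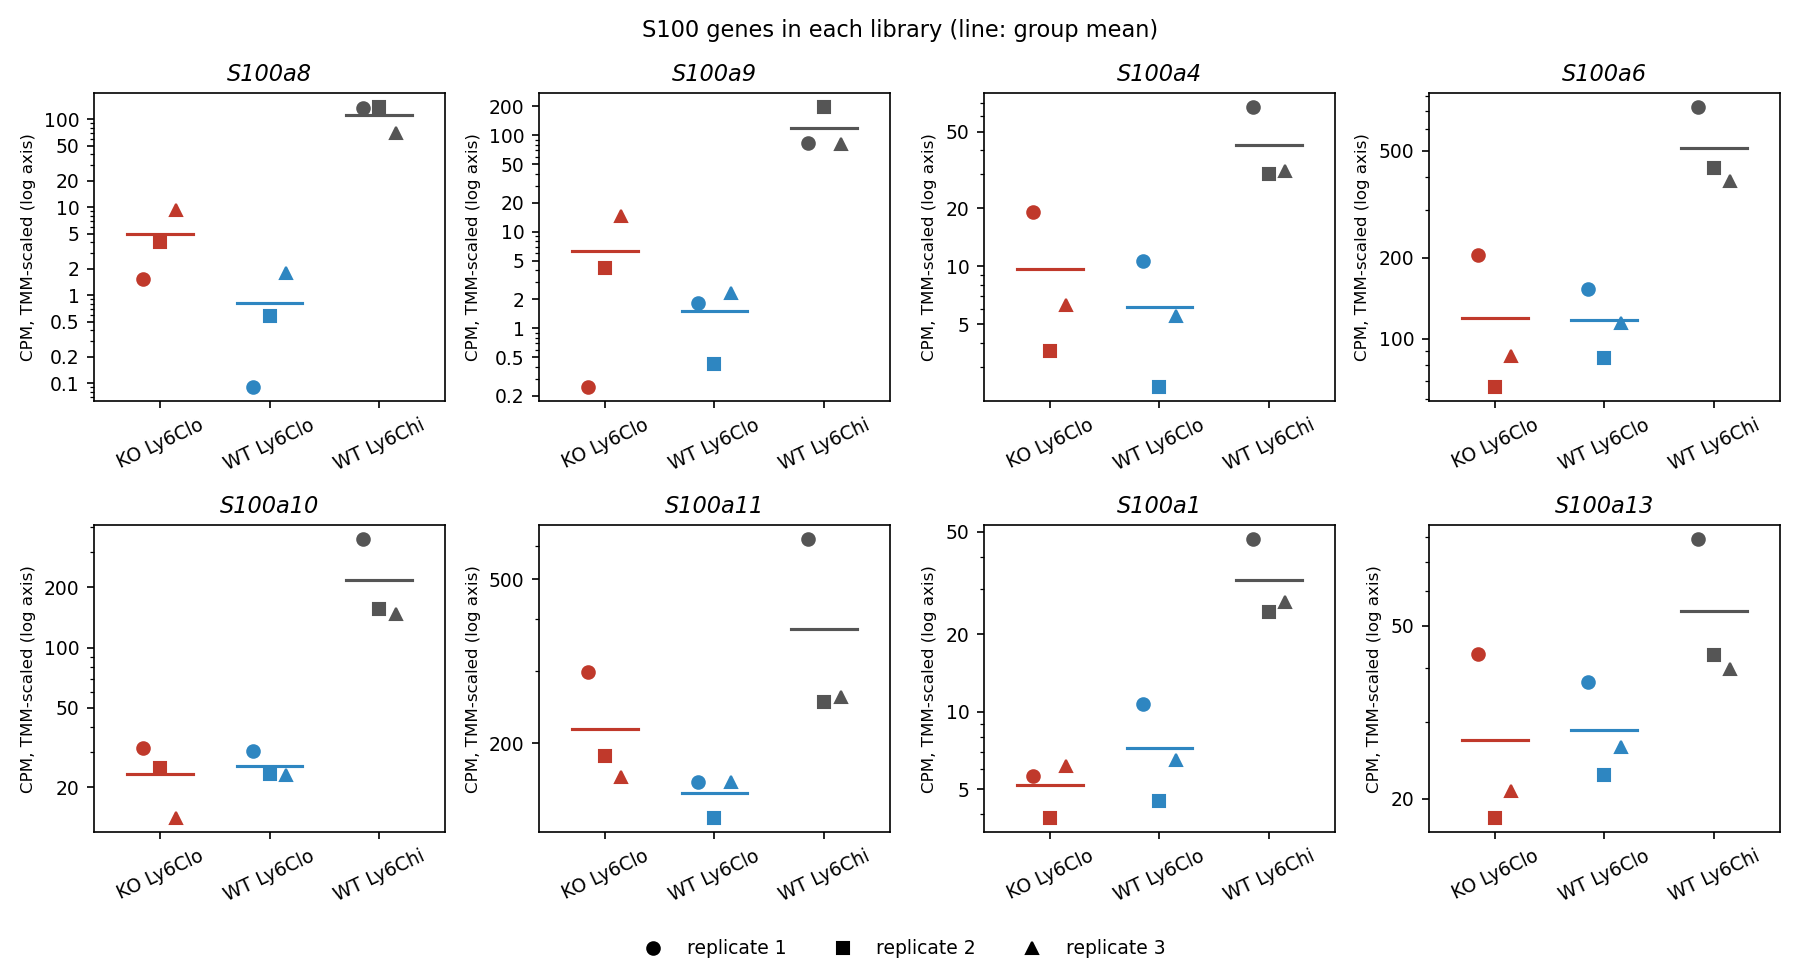
Levels of the 8 S100 genes in each library, as CPM on TMM-scaled library sizes (log axis), with KO Ly6Clo in red, WT Ly6Clo in blue and WT Ly6Chi in grey; symbols give the replicate and lines the group mean. All WT Ly6Chi libraries lie above all WT Ly6Clo libraries for each gene, as for 14.7% of all genes tested. KO and WT Ly6Clo libraries overlap for each gene but S100a11, where KO is higher, as for 5.22% of all genes.

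In the count test (quasi-likelihood test of edgeR, adjusted by Benjamini-Hochberg over all 18341 genes, called at an adjusted p under 0.05), 5 of the 8 genes were lower in WT Ly6Clo than in WT Ly6Chi monocytes and none was higher. Over all genes, 1.62% were called lower and 1.88% higher in this comparison. The groups did not overlap, with WT Ly6Clo lower, for 8 of the 8 S100 genes and for 14.7% of all genes. The median log2 fold change was -2.48 over the 8 genes and -0.0042 over all genes tested. Without any one of the WT Ly6Chi libraries, 2 of the 8 genes were called, S100a8 and S100a10. Without WT Ly6Clo replicate 1, 2 or 3, the number called was 3, 1 and 2.

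Between KO Ly6Clo and WT Ly6Chi monocytes, 4 of the 8 genes were lower and none was higher, against 2.46% of all genes called lower and 2.06% called higher. The groups did not overlap, with KO lower, for 6 of the 8 S100 genes and 11.7% of all genes. The median log2 fold change was -2.39 over the 8 genes and 0.04 over all genes. Without any one of the WT Ly6Chi libraries, 2 of the 8 genes were called, S100a1 and S100a10. Without KO replicate 1, 2 or 3, the number called was 4, 2 and 3. This comparison shares its WT Ly6Chi libraries with the one above, and genotype and subset differ together in it.

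Between KO and WT Ly6Clo monocytes, 0 of the 8 genes were called by edgeR, by DESeq2 (which gave S100a9 no adjusted p) or by limma-voom, and 1 (S100a8) had an unadjusted edgeR p under 0.05. This comparison called 0.0709% of all genes. Fitted differences were positive for 5 S100 genes and negative for 3, with a median log2 fold change of 0.27 against 0.03 over all genes. The groups did not overlap, with KO higher, for 1 S100 gene (S100a11) and 5.22% of all genes, and with KO lower for 0 S100 genes and 5.70% of all genes.

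**Figure D2:**
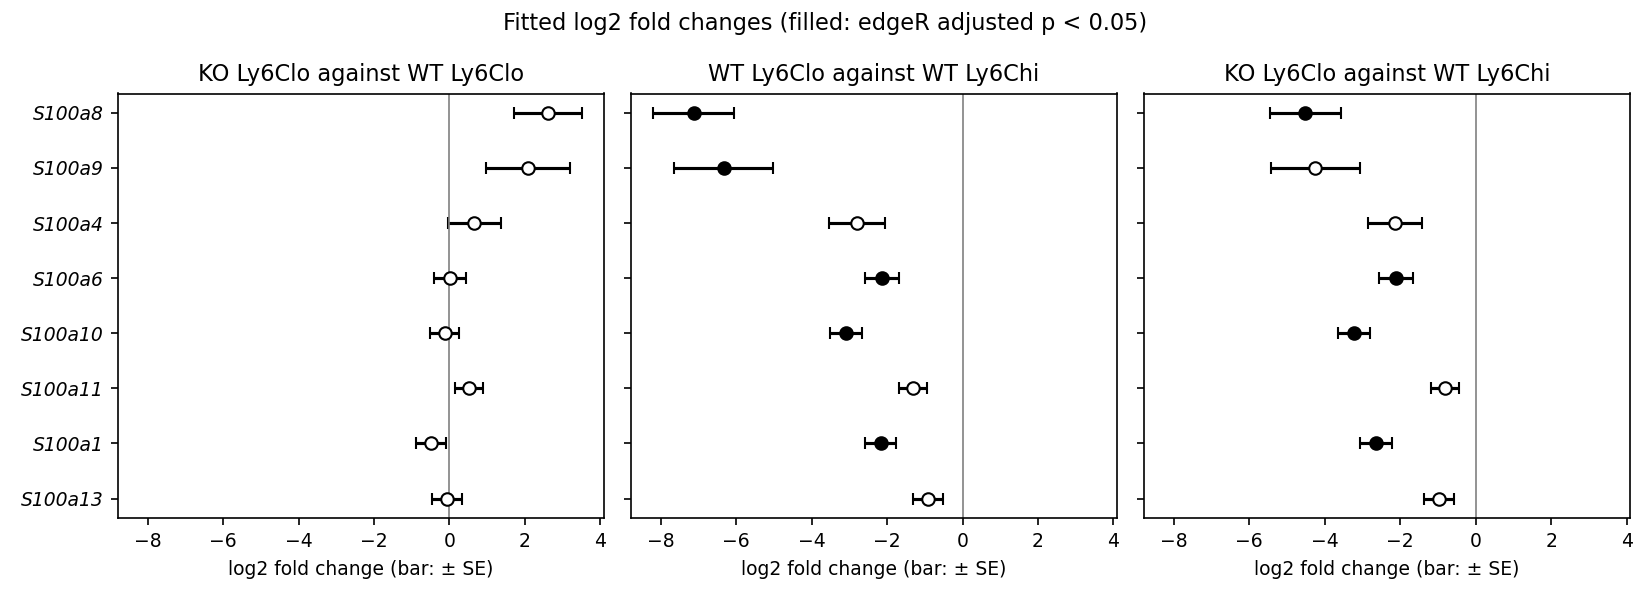
Fitted log2 fold changes of the 8 S100 genes in the 3 comparisons, with bars of ± SE derived from the edgeR F statistic. Filled circles are genes called at an adjusted p under 0.05. All 8 estimates are negative in both comparisons with WT Ly6Chi, where 5 and 4 are filled, and none is filled between KO and WT Ly6Clo.

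S100a8 had 1.55, 4.05 and 9.23 CPM in KO Ly6Clo replicates 1 to 3, 0.0917, 0.577 and 1.79 CPM in WT Ly6Clo, against 134, 137 and 69.2 CPM in WT Ly6Chi. The WT Ly6Clo libraries were the lowest, with 5 counts in replicate 1, and KO replicate 1 fell among them, while both other KO libraries lay above. WT Ly6Clo monocytes averaged 0.821 ± 0.877 CPM against 113 ± 38.1 CPM in WT Ly6Chi (SD, n = 3 each). The WT difference was a log2 fold change of -7.13 (SE 1.07, edgeR adjusted p = 0.0103), or 140-fold lower in WT Ly6Clo. It kept its call in 18 of 19 alternative settings and lost it without WT Ly6Clo replicate 2 (adjusted p = 0.0515).

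KO Ly6Clo monocytes averaged 4.95 ± 3.92 CPM of S100a8 (SD, n = 3). The log2 fold change was 2.61 against WT Ly6Clo (SE 0.89, edgeR adjusted p = 0.642 over all genes). Over the 19 alternatives it ran from 1.81 to 3.75, always with KO higher, and the adjusted p from 0.068 with DESeq2 to 0.996, so that no setting called it. S100a8 was also lower in KO Ly6Clo than in WT Ly6Chi monocytes (log2 fold change -4.52, SE 0.94, edgeR adjusted p = 0.0302). Leaving out single libraries ended this call, namely without WT Ly6Chi replicate 1, 2 or 3 or KO replicate 1 or 2 (adjusted p from 0.0539 to 0.111).

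S100a9, the calprotectin partner, had 0.248, 4.19 and 14.6 CPM in KO Ly6Clo, 1.83, 0.431 and 2.31 CPM in WT Ly6Clo, against 83.8, 195 and 82.3 CPM in WT Ly6Chi. KO Ly6Clo libraries spanned from below the lowest to above the highest WT Ly6Clo library, and all 6 Ly6Clo libraries lay below all WT Ly6Chi libraries. The log2 fold change between the WT subsets was -6.33 (SE 1.32, edgeR adjusted p = 0.0352). The call was lost without any one of the 6 WT libraries or KO replicate 2 (adjusted p from 0.0526 to 0.119). KO Ly6Clo differed from WT Ly6Clo by 2.08 (log2, SE 1.11, adjusted p = 0.918) and from WT Ly6Chi by -4.25 (SE 1.19, adjusted p = 0.0913), neither of which passed the test.

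The proportion of the calprotectin partners was uneven in the Ly6Clo libraries. In TPM (transcripts per 1000000, which corrects for gene length), the ratio of S100a8 to S100a9 was 4.70, 0.728 and 0.475 in KO Ly6Clo, 0.0376, 1.01 and 0.584 in WT Ly6Clo and 1.20, 0.527 and 0.632 in WT Ly6Chi. The extreme ratios belong to libraries with few reads of one partner. KO Ly6Clo replicate 1 held 100 counts of S100a8 and 16 of S100a9, and WT Ly6Clo replicate 1 held 5 and 100. In WT Ly6Chi libraries each of these genes had at least 3390 counts.

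Some neutrophil transcripts, mostly of granule proteins, were also lower in WT Ly6Clo than in WT Ly6Chi. The 13 neutrophil markers summed to 8.61, 7.22 and 15.1 CPM in KO Ly6Clo, 4.20, 10.1 and 4.37 CPM in WT Ly6Clo, against 579, 632 and 357 CPM in WT Ly6Chi. In WT Ly6Clo against WT Ly6Chi, 5 of the 13 were called lower (Mmp8, Camp, Ltf, Prtn3 and Ngp), beside 1.62% of all genes. In KO Ly6Clo against WT Ly6Chi 1 was (Camp), beside 2.46% of all genes. The granule gene Ngp was at 0.0155, 0.0982 and 4.07 CPM in KO Ly6Clo, at 0 in all WT Ly6Clo libraries and at 35.0, 256 and 104 CPM in WT Ly6Chi. The surface markers of mature neutrophils were low in all 9 libraries, with Ly6g at most 0.411 CPM and Cxcr2 at most 2.86 CPM. The uncalled log2 fold change in WT Ly6Clo against WT Ly6Chi was 0.06 for Ly6g and 2.06 for Cxcr2. Between KO and WT Ly6Clo, none of the 13 was called, and KO replicate 3 had the highest neutrophil sum, S100a8 and S100a9 of the Ly6Clo libraries. The other Ly6Clo libraries did not keep this order. KO replicate 1, lowest of the KO libraries in S100a8 and S100a9, had a higher sum than KO replicate 2. WT Ly6Clo replicate 2 had a higher sum than both, beside the lowest S100a9 of WT Ly6Clo. The part of other cells in these S100 values was not tested.

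The 9 Ly6Chi monocyte markers summed to 643, 412 and 309 CPM in KO Ly6Clo, 535, 556 and 449 CPM in WT Ly6Clo, against 12371, 9011 and 11473 CPM in WT Ly6Chi. Among the KO libraries, the lowest S100a8 stood beside the highest of these sums, and the part of Ly6Chi cells was not tested. In KO against WT Ly6Clo, 6 of the 9 markers had a negative log2 fold change, and Ccr2, Hp and Vcan a positive one. Mgst1 (-2.98), Fn1 (-3.32) and Chil3 (-5.41) were lower in every KO than in every WT Ly6Clo library. Of the 9 markers, 8 were called lower in KO Ly6Clo than in WT Ly6Chi (2.46% of all genes) and 9 in WT Ly6Clo (1.62%). Between KO and WT Ly6Clo 1 was called (Mgst1, lower in KO), beside 0.0709% of all genes in either direction.

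**Figure D3:**
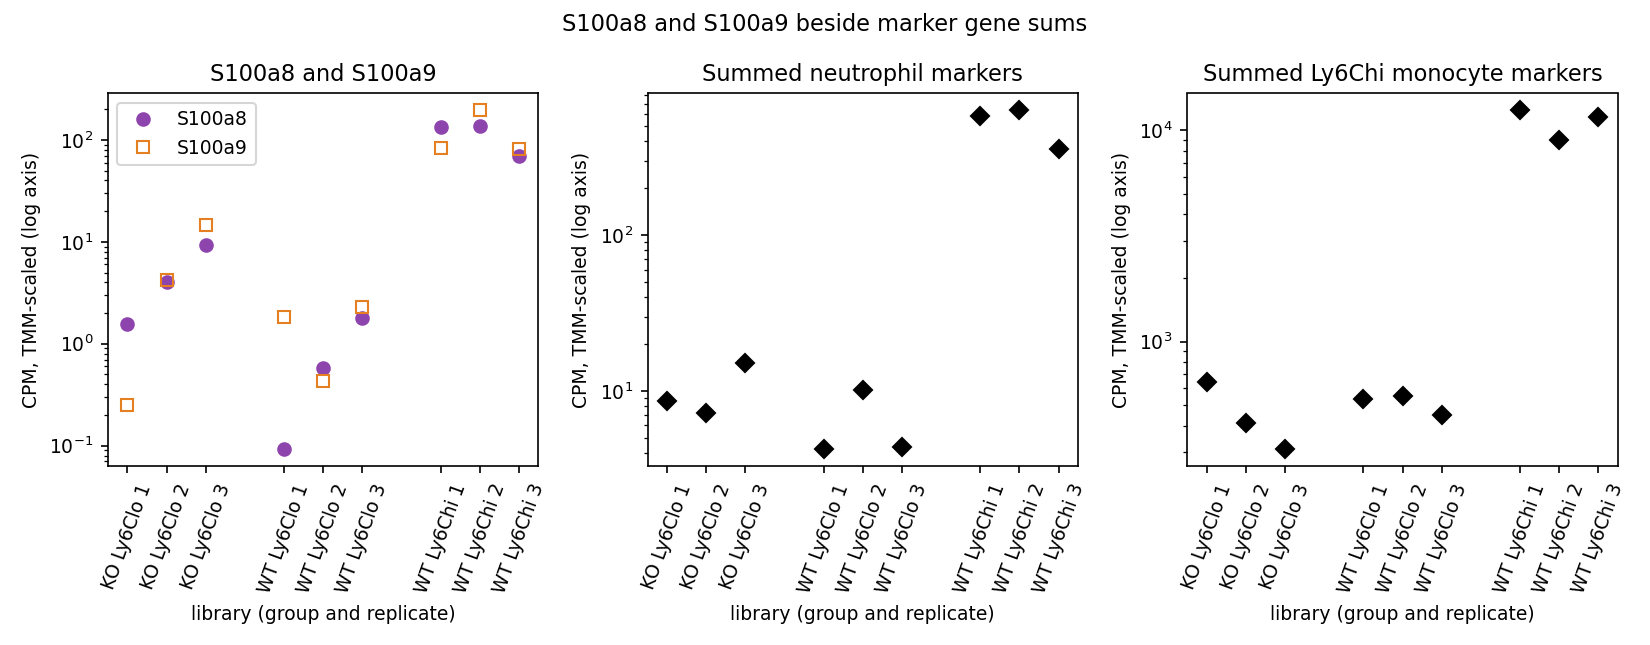
S100a8 and S100a9 (left), the sum of 13 neutrophil markers (middle) and the sum of 9 Ly6Chi monocyte markers (right) in each library, in CPM on log axes. All are highest in the 3 WT Ly6Chi libraries. KO Ly6Clo replicate 3 has the highest CPM of S100a8, of S100a9 and of the neutrophil sum (15.1) among the 6 Ly6Clo libraries. KO replicate 1 has a higher neutrophil sum (8.61) than KO replicate 2 (7.22), but less S100a8 and S100a9.

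S100a10, the calcium-insensitive partner of annexin A2, had 31.4, 24.9 and 14 CPM in KO Ly6Clo, 30.3, 23.4 and 23.0 CPM in WT Ly6Clo, against 349, 156 and 148 CPM in WT Ly6Chi. The Ly6Clo groups overlapped, and their highest library, at 31.4 CPM, was far below the lowest WT Ly6Chi library. WT Ly6Clo monocytes averaged 25.6 ± 4.12 CPM against 218 ± 114 CPM in WT Ly6Chi (SD, n = 3 each; log2 fold change -3.09, SE 0.42, edgeR adjusted p = 0.0063), 8.51-fold lower. KO Ly6Clo monocytes averaged 23.4 ± 8.79 CPM, which was lower than WT Ly6Chi (log2 fold change -3.22, SE 0.42, adjusted p = 0.00407) and differed from WT Ly6Clo by -0.13 (SE 0.39, adjusted p = 0.9998). S100a10 kept both calls in 19 of 19 alternatives.

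Anxa2, which encodes the membrane-binding partner of S100a10, had 502, 468 and 410 CPM in KO Ly6Clo, 677, 643 and 599 CPM in WT Ly6Clo, against 1607, 1335 and 1182 CPM in WT Ly6Chi. The 3 groups did not overlap. The Ly6Clo values were lower than WT Ly6Chi in both genotypes, with a log2 fold change of -1.10 in WT (SE 0.16, edgeR adjusted p = 0.0085) and -1.58 in KO (SE 0.16, adjusted p = 0.0011), while KO against WT Ly6Clo gave -0.47 (SE 0.16, adjusted p = 0.628). Ahnak, a giant scaffold protein that binds the complex of S100a10 and annexin A2, had 127, 120 and 75.8 CPM in KO Ly6Clo, 144, 128 and 116 CPM in WT Ly6Clo, against 351, 380 and 464 CPM in WT Ly6Chi. It was lower than WT Ly6Chi by -1.62 in WT Ly6Clo (SE 0.22, adjusted p = 0.00678) and -1.89 in KO Ly6Clo (SE 0.23, adjusted p = 0.00246).

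Annexins bind membrane phospholipids when calcium is present, and several carry S100 proteins there. Of 12 annexin genes 9 could be tested. Of these, 4 were called lower in WT Ly6Clo than in WT Ly6Chi (Anxa2, Anxa3, Anxa4 and Anxa5), beside 1.62% of all genes. In KO Ly6Clo against WT Ly6Chi, 5 were called lower, Anxa1 and those 4, beside 2.46% of all genes. No annexin gene was called higher in either, and none was called between KO and WT Ly6Clo. Their median log2 fold change was -0.33 between KO and WT Ly6Clo, -1.05 between the WT subsets and -1.35 between KO Ly6Clo and WT Ly6Chi. Anxa3 differed most, with 3.31, 3.46 and 2.55 CPM in KO Ly6Clo, 6.03, 7.63 and 2.44 CPM in WT Ly6Clo, against 112, 67.4 and 66.1 CPM in WT Ly6Chi (log2 fold change between WT subsets -3.93, SE 0.44, edgeR adjusted p = 0.00306). Between the WT subsets, Anxa4 lost its call without any WT Ly6Chi library or WT Ly6Clo replicate 2 or 3 (adjusted p from 0.0533 to 0.0953), and Anxa5 without any one of the 6 WT libraries (adjusted p from 0.0699 to 0.1).

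S100a4, which binds nonmuscle myosin IIA and is known from motile cells, had 19.2, 3.63 and 6.32 CPM in KO Ly6Clo, 10.6, 2.37 and 5.54 CPM in WT Ly6Clo, against 66.7, 30.1 and 31.2 CPM in WT Ly6Chi. Replicate 1 was the highest in each of the 3 groups. The Ly6Clo groups overlapped and stayed below WT Ly6Chi, but no comparison passed the test. The log2 fold change was -2.79 between the WT subsets (SE 0.74, edgeR adjusted p = 0.0813), -2.14 between KO Ly6Clo and WT Ly6Chi (SE 0.72, adjusted p = 0.161) and 0.65 between KO and WT Ly6Clo (SE 0.70, adjusted p = 0.9998). The exons of S100a4 overlap those of the same-strand gene Gm42674, which had no count in any library.

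S100a6 (calcyclin), which binds the adaptor encoded by Cacybp, had 204, 66.4 and 86.5 CPM in KO Ly6Clo, 153, 84.6 and 115 CPM in WT Ly6Clo, against 723, 430.4 and 385 CPM in WT Ly6Chi. The Ly6Clo means differed by less than the spread between libraries, with 119 ± 74.3 CPM for KO and 118 ± 34.5 CPM for WT, against 513 ± 183 CPM in WT Ly6Chi (SD, n = 3 each). S100a6 was lower in WT Ly6Clo than in WT Ly6Chi (log2 fold change -2.12, SE 0.45, edgeR adjusted p = 0.0386), a call lost without any one of the 6 WT libraries or KO replicate 3 (adjusted p from 0.0513 to 0.137). It was also lower in KO Ly6Clo than in WT Ly6Chi (log2 fold change -2.11, SE 0.45, adjusted p = 0.034), a call lost without any WT Ly6Chi library, WT Ly6Clo replicate 3 or KO replicate 2 or 3 (adjusted p from 0.0597 to 0.132), or with the WT Ly6Clo group left out of the model (0.0659). KO and WT Ly6Clo differed by 0.02 (log2, SE 0.43), a sign that changed between settings. Cacybp had 146, 65.9 and 64.9 CPM in KO Ly6Clo, 100.4, 49.9 and 67.5 CPM in WT Ly6Clo, against 135, 59.9 and 67.2 CPM in WT Ly6Chi, and was called in no comparison.

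S100a11 (calgizzarin), known to bind annexin A1, was the most abundant S100 transcript per length in each group and the only one whose KO and WT Ly6Clo libraries did not overlap. It had 297, 186 and 166 CPM in KO Ly6Clo, 162, 132 and 161 CPM in WT Ly6Clo, against 625, 252 and 258 CPM in WT Ly6Chi. KO replicate 3 lay only just above the highest WT Ly6Clo library, and KO replicate 1 lay above WT Ly6Chi replicates 2 and 3. Levels averaged 216 ± 70.6 CPM in KO Ly6Clo, 152 ± 17.1 CPM in WT Ly6Clo, against 379 ± 213 CPM in WT Ly6Chi (SD, n = 3 each). No comparison passed the test, with log2 fold changes of 0.51 between KO and WT Ly6Clo (SE 0.37, edgeR adjusted p = 0.9998), -1.32 between the WT subsets (SE 0.38, adjusted p = 0.0995) and -0.81 between KO Ly6Clo and WT Ly6Chi (SE 0.37, adjusted p = 0.32). A pseudogene copy, S100a11-ps, was between 0.0917 and 0.376 CPM in all libraries, and the sources used here do not say how reads were divided between such copies.

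Anxa1, the gene of the annexin that S100a11 binds, had 334, 139 and 122 CPM in KO Ly6Clo, 296, 303 and 259 CPM in WT Ly6Clo, against 1135, 691 and 715 CPM in WT Ly6Chi. KO replicate 1 was the highest Ly6Clo library for Anxa1 as it was for S100a11. Anxa1 was called lower in KO Ly6Clo than in WT Ly6Chi (log2 fold change -2.09, SE 0.39, edgeR adjusted p = 0.0184), which was lost without WT Ly6Chi replicate 1 or KO replicate 2 or 3 (adjusted p from 0.0611 to 0.07) or with the WT Ly6Clo group left out of the model (0.0529), and narrowly missed the threshold between the WT subsets (-1.57, SE 0.38, adjusted p = 0.0599).

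S100a1, best known as a regulator of calcium cycling in heart and skeletal muscle, had 5.63, 3.86 and 6.14 CPM in KO Ly6Clo, 10.8, 4.52 and 6.49 CPM in WT Ly6Clo, against 46.9, 24.4 and 26.6 CPM in WT Ly6Chi. The Ly6Clo groups overlapped, and the highest of their libraries was below the lowest WT Ly6Chi library. It was lower in WT Ly6Clo than in WT Ly6Chi (log2 fold change -2.17, SE 0.41, edgeR adjusted p = 0.0251), a call lost without any WT Ly6Chi library or WT Ly6Clo replicate 2 or 3 (adjusted p from 0.0549 to 0.101). It was lower in KO Ly6Clo than in WT Ly6Chi as well (log2 fold change -2.65, SE 0.42, adjusted p = 0.00972), a call kept in 19 of 19 alternatives. KO and WT Ly6Clo differed by -0.48 (log2, SE 0.40, adjusted p = 0.9998).

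S100a13, which takes part in the release of proteins that lack a signal peptide, is the divergent neighbour of S100a1 and had 43.1, 18.1 and 20.9 CPM in KO Ly6Clo, 37.1, 22.7 and 26.4 CPM in WT Ly6Clo, against 79.0, 42.9 and 39.8 CPM in WT Ly6Chi. KO replicate 1 reached the level of WT Ly6Chi replicates 2 and 3. No comparison passed the test. The log2 fold change between the WT subsets was -0.91 (SE 0.40, edgeR adjusted p = 0.273), beside -2.17 for S100a1, and the difference between the genes was not tested. The difference was -0.98 between KO Ly6Clo and WT Ly6Chi (SE 0.40, adjusted p = 0.253) and -0.07 between KO and WT Ly6Clo (SE 0.40, adjusted p = 0.9998).

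Within each run of library numbers, all 8 genes were lower in WT Ly6Clo than in WT Ly6Chi monocytes. The log2 ratio was -8.64 in the first run and -5.84 in the second for S100a8, -6.21 and -5.91 for S100a9, and -3.70 and -2.72 for S100a10. It was smallest for S100a11 and S100a13, at -2.09 and -0.66 for S100a11 and -1.40 and -0.65 for S100a13. KO Ly6Clo against WT Ly6Clo gave 3.07 and 2.36 for S100a8, and 0.97 and 2.66 for S100a9. The KO ratio was 0.18 and -0.41 for S100a6, 0.07 and -0.72 for S100a10, and 0.033 and -0.34 for S100a13, so that none of these 3 kept its sign. KO Ly6Clo against WT Ly6Chi was negative in both runs for all 8 genes, for example -5.58 and -3.48 for S100a8. These ratios rest on 1 or 2 libraries a group and have no test.

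Replicate 1 was the highest library of its group in 17 of 24 combinations of the 8 genes and 3 groups. It was the highest in all 3 groups for 5 of the 8 genes (S100a4, S100a6, S100a10, S100a11 and S100a13), and this held for 11.3% of all genes tested. S100a1 had its highest value in replicate 1 in both WT groups. S100a8 and S100a9 went otherwise, since replicate 1 was the lowest KO library for both and the lowest WT Ly6Clo library for S100a8. Genes with under 1000 exonic bases, which 6 of the 8 are, took 2.59%, 2.42% and 2.33% of counts in KO Ly6Clo, 2.22%, 1.84% and 2.28% in WT Ly6Clo and 3.23%, 2.40% and 2.18% in WT Ly6Chi. The part of this share in the S100 values was not tested beyond the following fits. Without the 3 libraries numbered 1, 5 of 8 genes were called lower in WT Ly6Clo than in WT Ly6Chi, and 4 in KO Ly6Clo. The same numbers were called after a trend with gene length was removed from each library. That trend was fitted to the library's log2 CPM relative to the mean of all 9 libraries.

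**Figure D4:**
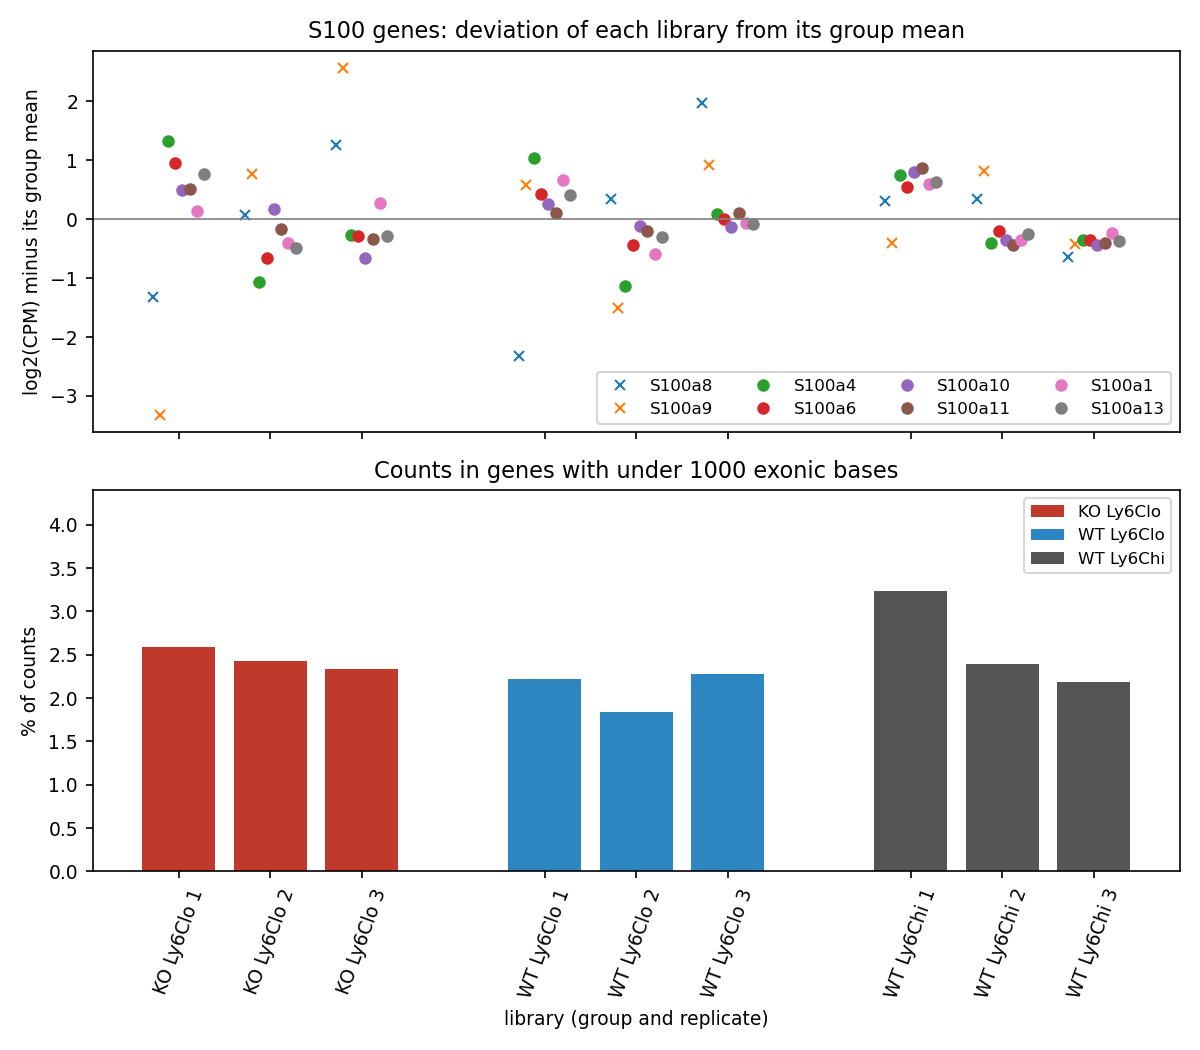
Top: log2(CPM) of each S100 gene minus its group mean, per library; crosses are S100a8 and S100a9, circles the other 6 genes. Bottom: percentage of counts in genes with under 1000 exonic bases. Circles lie above 0 in the replicate 1 libraries of all 3 groups, and WT Ly6Chi replicate 1 also has the highest short-gene percentage, 3.23%.

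Levels of different genes were compared per length, in TPM. In KO Ly6Clo the order ran from S100a11 (1395 ± 452 TPM) through S100a6 (287 ± 179), S100a13 (126 ± 63.3), S100a10 (63.5 ± 23.3), S100a4 (54.9 ± 46.8), S100a9 (40.7 ± 48.3) and S100a1 (24.8 ± 6.23) to S100a8 (23.7 ± 19.3 TPM; SD, n = 3 each). S100a11 and S100a6 were the neighbours in this order whose libraries did not overlap, and all later neighbours did. Compared within each library, S100a6 was above S100a13 and S100a13 above S100a10 in all 3 KO libraries. Later neighbours did not keep their order in every library. In WT Ly6Clo the order began with the same 5 genes, S100a11 (917 ± 154 TPM), S100a6 (268 ± 89.7), S100a13 (125 ± 37.5), S100a10 (65.2 ± 12.7) and S100a4 (33.2 ± 23.2), and ended with S100a1 (32.6 ± 15.5), S100a9 (9.22 ± 6.12) and S100a8 (3.69 ± 4.08 TPM). There, S100a10 and S100a4, S100a4 and S100a1, and S100a9 and S100a8 overlapped, and the other neighbours did not. Of these overlapping pairs, only S100a10 and S100a4 kept their order within all 3 libraries.

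In WT Ly6Chi the calprotectin genes stood in the middle of the order. It ran from S100a11 (2270 ± 1313 TPM) through S100a6 (1147 ± 427), S100a9 (700.4 ± 368), S100a10 (550.4 ± 296), S100a8 (497 ± 169), S100a13 (231 ± 96.9) and S100a4 (224 ± 113) to S100a1 (144 ± 56.8 TPM; SD, n = 3 each), and each pair of neighbours overlapped. Within all 3 WT Ly6Chi libraries, S100a11 was above S100a6, S100a8 above S100a13 and S100a4 above S100a1. The other neighbours did not keep their order in every library. Together the 8 genes took 0.0642%, 0.0296% and 0.0338% of counts in KO Ly6Clo and 0.0407%, 0.0235% and 0.0337% in WT Ly6Clo. In WT Ly6Chi they took 0.238%, 0.126% and 0.101%.

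The genes whose log2(CPM + 1) followed each member most closely over the 9 libraries were taken from 8997 protein-coding genes with a mean of at least 5 CPM. These are descriptions, since the points share libraries and group differences. S100a10 was followed most closely by Akr1a1 (Pearson r = 0.994), Tctex1d2 and Glipr2, S100a6 by Ccl9 (0.989), Idh1 and Cib1, and S100a4 by Erp29 (0.986), Prkra and Eif3h. S100a1 was followed by B3gnt8 (0.986), Mfsd1 and Lamtor4, S100a13 by Vps29 (0.981), Atp6v1g1 and Snx2, and S100a11 by Eid1 (0.963), Ciao2a and Bad. For S100a8 they included Ppp1r21 (0.976) and Rpl10, and for S100a9 Rpl3 (0.979), Padi4 (0.970) and S100a8 (0.967). Among the members themselves, S100a4 and S100a6 (0.972) and S100a8 and S100a9 were the closest pairs, and S100a9 and S100a13 (0.494) the least alike.

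Of 8 other S100 genes (S100a3, S100a5, S100a7a, S100a14, S100a16, S100b, S100g and S100z), 0 had enough counts to test. The highest level of any of them was 0.513 CPM, that of S100a3 in WT Ly6Clo replicate 1. S100a7a had 2 counts over the KO Ly6Clo libraries, 0 over WT Ly6Clo and 37 over WT Ly6Chi.

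Proteins at which extracellular S100 proteins act include Toll-like receptor 4 with its partners, and the scavenger receptor CD36. All 10 genes of this list were tested, and 1 was called higher and 1 lower in each comparison with WT Ly6Chi, while 0 were called between KO and WT Ly6Clo. Their median log2 fold change was 0.01 between KO and WT Ly6Clo, -0.28 between the WT subsets and -0.36 between KO Ly6Clo and WT Ly6Chi. Cd36, which can bind calprotectin carrying arachidonic acid, was the higher one, with 613, 943 and 657 CPM in KO Ly6Clo, 812, 956 and 836 CPM in WT Ly6Clo, against 11.8, 109 and 105 CPM in WT Ly6Chi. Its log2 fold change was 3.29 in KO Ly6Clo against WT Ly6Chi (SE 0.68, edgeR adjusted p = 0.0288) and 3.52 between the WT subsets (SE 0.68, adjusted p = 0.0267). It thus ran opposite to S100a8 and S100a9 between the subsets, and by edgeR the WT call was lost without WT Ly6Chi replicate 2 or 3 or any WT Ly6Clo library (adjusted p from 0.0718 to 0.076). The KO call was lost without WT Ly6Chi replicate 2 or 3, KO replicate 2 or 3 or WT Ly6Clo replicate 1 or 3 (adjusted p from 0.0505 to 0.0775), and when the WT Ly6Clo group was left out of the model (0.0716).

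Cd33, whose human product is a receptor of S100A9, was the lower one, with 15.2, 15.6 and 9.69 CPM in KO Ly6Clo, 1.61, 8.07 and 9.36 CPM in WT Ly6Clo, against 47.2, 80.2 and 91.4 CPM in WT Ly6Chi. The log2 fold change was -2.43 in KO Ly6Clo against WT Ly6Chi (SE 0.58, edgeR adjusted p = 0.0493) and -3.52 between the WT subsets (SE 0.60, adjusted p = 0.0171). The KO call was lost on leaving out any library except WT Ly6Clo replicate 1 (adjusted p from 0.0688 to 0.184), and the WT call without WT Ly6Chi replicate 2 or 3 or WT Ly6Clo replicate 2 (0.0574 to 0.0576).

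Besides Ahnak, none of the 6 tested intracellular partners of S100 proteins was called, among them Myh9, the nonmuscle myosin that S100a4 binds, at 275, 764 and 541 CPM in KO Ly6Clo, 441, 430.4 and 571 CPM in WT Ly6Clo, against 182, 415 and 531 CPM in WT Ly6Chi. The median log2 fold change of these partners was 0.01 between KO and WT Ly6Clo, 0.11 between the WT subsets and 0.47 between KO Ly6Clo and WT Ly6Chi. Plasminogen activation, in which the S100a10 complex acts as a surface receptor, had 4 of 8 genes tested and 0 called in any comparison. Plaur, the urokinase receptor, had 477, 1058 and 781 CPM in KO Ly6Clo, 441, 2469 and 773 CPM in WT Ly6Clo, against 368, 953 and 1090.0 CPM in WT Ly6Chi, with WT Ly6Clo replicate 2 far above the rest. Plgrkt, a plasminogen receptor gene, had 67.3, 58.8 and 56.4 CPM in KO Ly6Clo, 76.8, 77.2 and 63.1 CPM in WT Ly6Clo, against 53.9, 50.3 and 46.6 CPM in WT Ly6Chi. The median log2 fold change of the 4 genes was -0.46 between KO and WT Ly6Clo, 0.74 between the WT subsets and 0.89 between KO Ly6Clo and WT Ly6Chi.

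Among 12 other EF-hand genes, 0 were called between KO and WT Ly6Clo, and Aif1 was lower in both Ly6Clo groups than in WT Ly6Chi. Aif1, which encodes the macrophage protein Iba1, had 6.89, 13.4 and 10.1 CPM in KO Ly6Clo, 29.1, 22.8 and 27.9 CPM in WT Ly6Clo, against 76.1, 82.3 and 78.4 CPM in WT Ly6Chi. The 3 groups did not overlap. Its log2 fold change was -2.96 in KO Ly6Clo against WT Ly6Chi (SE 0.26, edgeR adjusted p = 0.000621), -1.57 between the WT subsets (SE 0.25, adjusted p = 0.0128) and -1.39 in KO against WT Ly6Clo (SE 0.25, adjusted p = 0.148). The last was called in 1 of 19 alternatives, DESeq2 (adjusted p = 7.03e-05). The WT call was lost without WT Ly6Chi replicate 2 or any WT Ly6Clo library (adjusted p from 0.0506 to 0.0592).

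Efhd2, another cytosolic EF-hand protein gene, had 1155, 1541 and 1132 CPM in KO Ly6Clo, 769, 1489 and 872 CPM in WT Ly6Clo, against 440.1, 589.6 and 651 CPM in WT Ly6Chi. Both Ly6Clo groups lay above WT Ly6Chi and overlapped each other. It was called higher in KO Ly6Clo than in WT Ly6Chi (log2 fold change 1.19, SE 0.28, edgeR adjusted p = 0.046), a call lost in 8 of the 9 fits that leave out a library (all but WT Ly6Clo replicate 2; adjusted p from 0.059 to 0.168). The median log2 fold change of the EF-hand list was -0.04 between KO and WT Ly6Clo, -0.05 between the WT subsets and -0.03 between KO Ly6Clo and WT Ly6Chi.

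**Figure D5:**
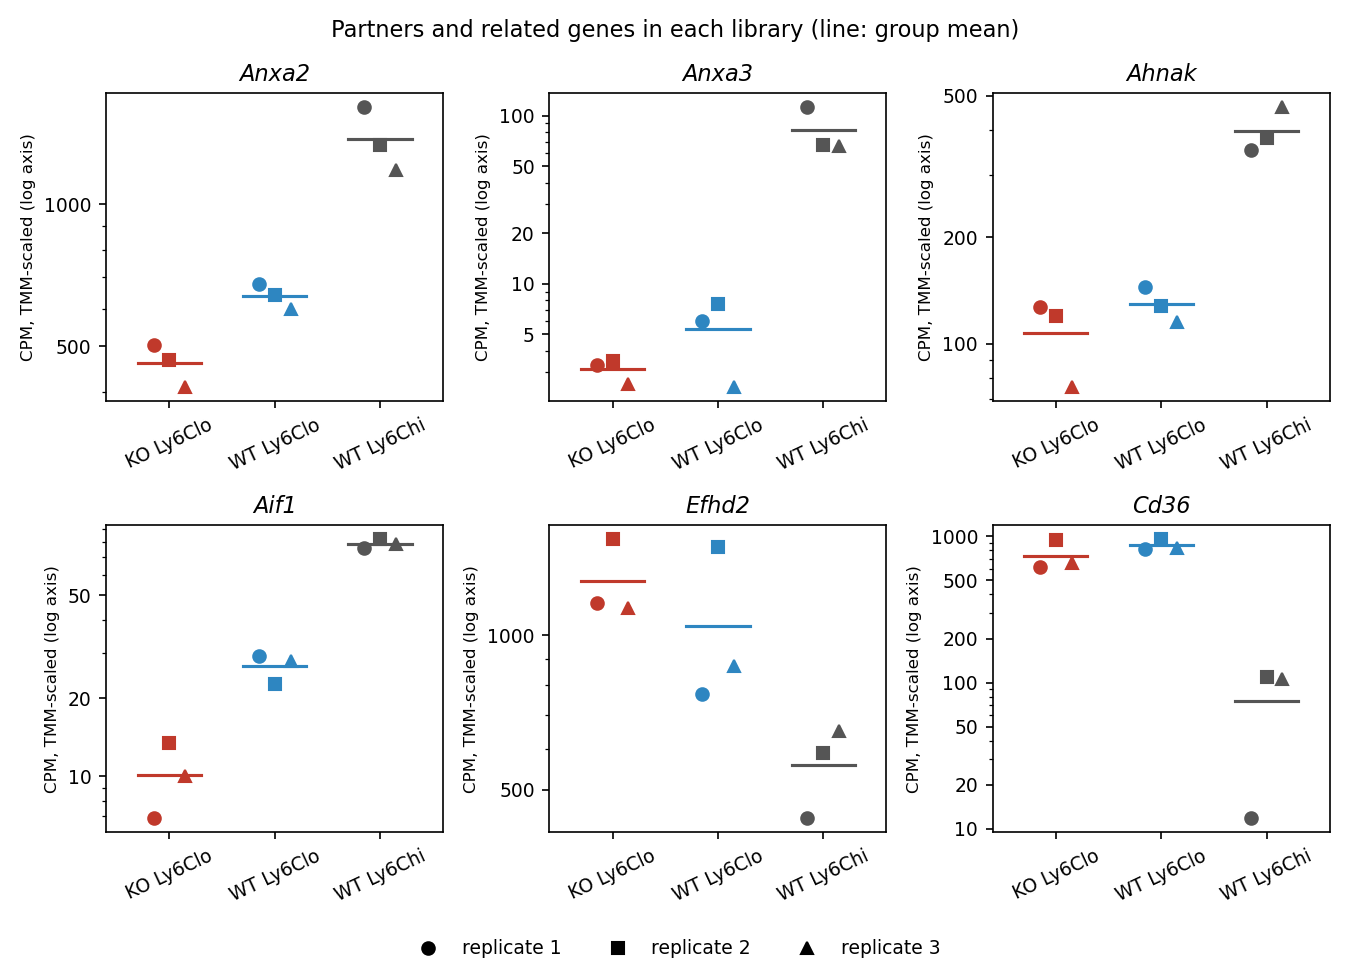
Levels of Anxa2, Anxa3, Ahnak, Aif1, Efhd2 and Cd36 in each library, as CPM on TMM-scaled library sizes (log axes), with KO Ly6Clo in red, WT Ly6Clo in blue and WT Ly6Chi in grey; lines are group means. Anxa2, Anxa3, Ahnak and Aif1 are highest in WT Ly6Chi, and Efhd2 and Cd36 are lowest there; Aif1 lies between 6.89 and 13.4 CPM in KO Ly6Clo, below all WT Ly6Clo libraries.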

How the data were processed

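SMARTer Ultra Low libraries from 10 ng of RNA were read as pairs of 150 bases, per the labels' protocols. The deposited tables hold whole-number read counts per gene, not normalized, and beside them CPM, FPKM and TPM, which the authors scaled from the counts and gene lengths, per the file headers. The submitters' processing notes name STAR 2.5.1a, featureCounts 1.4.6-p5, Salmon 0.8.2 and the build GRCm38. The use of strand and the treatment of reads shared by genes are not given in the sources used here.

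The counts were fitted by edgeR 4.0.16 in R 4.3.3 after filterByExpr by group (at least 10 counts), with TMM scaling, 1 term per group over all 9 libraries, the quasi-likelihood test and Benjamini-Hochberg adjustment. Each SE given with an edgeR result was derived, as the absolute log2 fold change divided by the square root of the test's F statistic. CPM in the text use TMM-scaled library sizes. TPM were used only to order levels, for the ratio of S100a8 to S100a9 and to choose the highest genes of a partner list. DESeq2 1.42.0 and limma 3.58.1 (voom) served as alternatives. The fit was tested on simulated data with less spread between libraries than the real counts, whose common dispersion was 0.448. That test does not show how often true differences would be called here. No library pair looked like 1 library deposited again. Depth was 48.1 to 173.7 in units of 1000000 counts, and counting error does not cover PCR copies.

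The members and lists were chosen with earlier results of these data known. Named are the members, Cebpa and Ly6c2, up to 6 called genes per partner list (or 2 of highest TPM), and the 3 genes most alike. Any further gene was chosen with its values in view. Results for some genes of these lists are not reported here.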

Additional observations from a re-analysis of the deposited data

How the results depend on the processing

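Each comparison was repeated under 19 alternatives, of which leaving out the 3 libraries numbered 1 and removing a trend with gene length were chosen after seeing the data. No alternative called an S100 gene between KO and WT Ly6Clo. Between the WT subsets 5 S100 genes were called, and 1 (without WT Ly6Clo replicate 2) to 6 (without KO replicate 1) when 1 library was left out. Between KO Ly6Clo and WT Ly6Chi 4 were called, and 2 to 4 on leaving out 1 library. With the replicate block, 8 were called between the WT subsets, 6 between KO Ly6Clo and WT Ly6Chi and 0 between KO and WT Ly6Clo. Over all genes the block called 949, 977 and 13 in these comparisons, beside 643, 829 and 13 in the main fit. With the block, S100a4, S100a11 and S100a13 were called between the WT subsets, unlike in the main fit. Deviations from the group means correlated positively in all 9 same-numbered pairs (from 0.0048 to 0.277), and over 0.1 in 5 of them. Pairs of libraries from different groups with different numbers ran from -0.22 to 0.10. By the rule used, with a limit of 0.1, this was not taken as pairing, so the main fit has no term for the number. Whether the numbers pair the samples was not settled. Of genes not called in the text, S100a4 was called between the WT subsets in 6 of 19 alternatives, S100a11 in 2 and S100a13 in 1, and between KO Ly6Clo and WT Ly6Chi S100a4 in 3, S100a9 in 2 and S100a13 in 1. DESeq2 gave no adjusted p for S100a9 in any comparison. Signs changed only among uncalled KO against WT Ly6Clo differences: S100a6 (0.02) was -0.028 without the filter on low counts, -0.029 with a term for the run, -0.12 with limma-voom, -0.11 with the replicate block, -0.37 without the libraries numbered 1 and -0.63 to 0.29 on leaving out 1 library. On leaving out 1 library S100a10 ran from -0.40 to 0.13, S100a13 from -0.57 to 0.14 and S100a4 from -0.32 (without KO replicate 1) to 1.29. A term for the run ended the KO Ly6Clo against WT Ly6Chi calls of Cd33 (adjusted p = 0.117) and Efhd2 (0.0936), and the replicate block also ended that of Cd33 (0.0623). Leaving out the libraries numbered 1 ended those of Efhd2 (0.105) there and of Anxa5 (0.0552) between the WT subsets, where dropping the filter on low counts ended that of Anxa4 (0.0567). The causes were not tested. Over all genes, DESeq2 called 277 between KO and WT Ly6Clo, where edgeR called 13 (2 to 21 on leaving out 1 library, 54 without the filter, 27 with a filter of 1 CPM, 2 without the libraries numbered 1 and 21 with the length trend removed) and limma-voom 16. Fitted on those 2 groups alone, edgeR called 0 genes there, with 859 at an unadjusted p under 0.05. Between the WT subsets DESeq2 called 1960, where edgeR called 643 (239 to 847 on leaving out 1 library), and between KO Ly6Clo and WT Ly6Chi 1951, where edgeR called 829 (379 to 818). Low counts limit S100a8 and S100a9 in Ly6Clo libraries, down to 5 and 16 counts.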
